A study of Homo sapiens with 12 samples.

Results

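Iron was added to Plasmax prepared without its trace elements, and the transcripts of HepG2 cells in the medium with iron (Plasmax-TE+Fe) were set against those in the medium without it (Plasmax-TE). Plasmax is a culture medium whose nutrients are set to the levels of human plasma. HepG2 is an established human cell line derived from a liver cancer, labelled here as hepatic cells of wild-type genotype. The comparison takes every library of these 2 media, 3 of Plasmax-TE+Fe and 3 of Plasmax-TE, which are 6 of the 12 libraries of the series. The other 6 libraries, 3 in complete Plasmax and 3 in EMEM (Eagle's minimum essential medium, in which the cells were maintained), served to estimate the spread between libraries and as reference levels. Cells were seeded in EMEM, switched to their medium 24 h later, given fresh medium after 48 h and harvested 96 h after the switch. All media held 10% heat-inactivated fetal bovine serum, and the iron that the serum brings was thus present in both media. The sources used here give neither the iron compound nor its concentration. The question the design puts is which transcripts respond to iron alone in a medium without trace elements.

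Iron enters liver cells bound to transferrin through transferrin receptors, is stored in ferritin, a shell of heavy and light chains, and leaves through ferroportin, the product of SLC40A1. When iron is short, the iron regulatory proteins bind stem loops in messenger RNA, which stabilises the message of TFRC and blocks the translation of ferritin without changing ferritin message. FBXL5 is the iron-sensing subunit of the ubiquitin ligase that removes iron regulatory protein 2. Liver cells also make hepcidin (HAMP), the hormone that closes ferroportin. Outside storage and transport, iron is the cofactor of heme proteins such as the cytochromes P450, of iron-sulfur clusters, and of the dioxygenases that mark the hypoxia-inducible factors for removal and demethylate histones.

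Total counts of the 6 libraries ran from 1752389 to 2379065. Before the TMM scaling used below, a single count corresponded to 0.420 to 0.571 CPM (the count scaled to a common library total). Levels below are CPM after TMM scaling, given for replicates 1, 2 and 3 in that order, and log2 fold changes are Plasmax-TE+Fe over Plasmax-TE ± SE from edgeR's quasi-likelihood model. The labels number the 12 libraries consecutively. Taken 4 at a time in that order, a division made here and not stated in the labels, they fall into 3 sets with 1 library per medium each, called library runs below; what the libraries of a run share beyond adjacent numbers is not given. Plasmax-TE replicate 1 shared the first run with Plasmax-TE+Fe replicate 2, Plasmax-TE replicate 2 shared the middle run with Plasmax-TE+Fe replicate 3, and Plasmax-TE replicate 3 shared the last run with Plasmax-TE+Fe replicate 1. On principal component 1 of the 6 libraries (44.4% of the variance of log2 CPM), the 2 libraries of the first run stood apart at -35.9 and -21.3, against 1.44 to 24.7 for the other 4. In both of them the small nucleolar RNA SNORD13 was high (1022 and 543 CPM, with the other 4 between 61.1 and 169 CPM) and the glucose transporter gene SLC2A1 was low within its medium. Results are therefore given with all libraries, with a block for the library run, and without this pair. Unless another fit is named, fold changes and their SE come from all 12 libraries without the block. This holds also where the p-value beside them is that with the block. The labels do not say whether replicates are separate cultures. The p-values therefore rest on the spread between libraries, and that spread may be technical.

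The cells expressed the transcripts of liver cells: 44 of 50 hepatocyte genes in a list of secreted proteins and markers were measured, with summed levels of 47214 to 49539 CPM in Plasmax-TE and 37382 to 39835 CPM in Plasmax-TE+Fe. None of 8 endothelial markers was among the genes analysed. Of 10 fibroblast and stellate markers 3 were measured, with summed levels of 35.7 to 69.1 CPM in Plasmax-TE and 31.9 to 40.9 CPM in Plasmax-TE+Fe. Of 12 blood cell markers 3 were measured, with summed levels of 753 to 1675 CPM in Plasmax-TE and 961 to 1765 CPM in Plasmax-TE+Fe, and almost all of the sum was lysozyme (LYZ, 739, 1667 and 1600 CPM in Plasmax-TE and 1759, 949 and 1612 CPM in Plasmax-TE+Fe). Within each medium LYZ was lowest in the library of the first run.

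With iron, 9 genes rose (0.0861%) and 18 fell (0.172%) among 10459 genes tested. The risers were CYP1A1, AREG, CHST15, TCIM, VPS37A, NEDD9, JAG1, TNFRSF12A and RNASET2. The genes that fell included AGXT, TRIM50, SPTLC3, SULT2A1, ALDH6A1, FGB, SLC13A5, KLB, FABP1, AMDHD2, RHBG, GALK1, ACAA1, MPC1, LIPC, NIPSNAP1 and SLC13A3. These 27 genes are 0.258% of the genes tested (edgeR's quasi-likelihood test, Benjamini-Hochberg adjusted p from 0.024 to 0.044), and 14 of them changed by at least 1 on the log2 scale, 8 upwards and 6 downwards. In 26 of the 27 the 3 libraries with iron lay wholly above or below the 3 without it, against 6.14% of all genes that were higher without overlap and 7.07% that were lower. The exception was AREG. Lack of overlap was also asked for by the rule that named most of the called genes below. The 27 genes were called on these same libraries, so the separation describes them and is no separate evidence. The plot of fold changes sets the values of 26 of them beside those with a block and without the pair of libraries that stood apart.

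**Figure D1:**
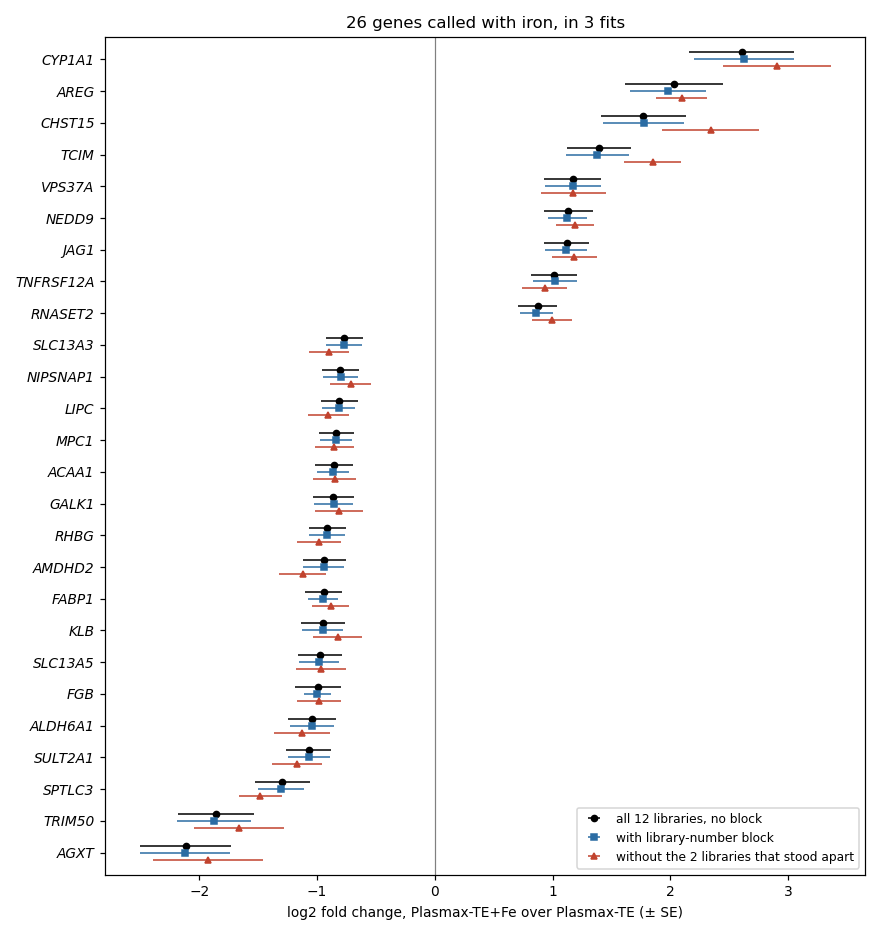
Log2 fold changes of 26 called genes (x axis, Plasmax-TE+Fe over Plasmax-TE; bars are SE), 1 line per gene (y axis), with all 12 libraries and no block (black circles), with a block for the library run (blue squares) and without the 2 libraries that stood apart (red triangles). Signs were the same in the 3 fits; of these 26, CHST15 and TCIM moved most, from 1.77 to 2.34 and from 1.39 to 1.85 without the pair.

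Of these 27 genes, all passed the test with the block for the library run too, where the count grew to 152 genes (1.45%), 51 higher (0.488%) and 101 lower (0.966%). Without the pair 99 genes passed (0.93% of 10643), 42 higher and 57 lower, and GALK1 and KLB were the 2 of the 27 that did not pass there (log2 fold changes -0.82 ± 0.21 and -0.83 ± 0.21, adjusted p = 0.063 and 0.059). Without the pair and with the block 258 genes passed (2.42%). The number of calls rested on single libraries: by edgeR's test without a block, 0 genes passed when Plasmax-TE replicate 2, Plasmax-TE replicate 3, Plasmax-TE+Fe replicate 1 or Plasmax-TE+Fe replicate 3 was left out, although 897, 981, 736 and 549 genes then had an unadjusted p under 0.05. Leaving out Plasmax-TE+Fe replicate 2, 1 of the 2 libraries that stood apart, raised the count to 229, and leaving out Plasmax-TE replicate 1 gave 28. The direction of all 27 genes was kept in each of these fits. Fitting the 6 libraries alone gave 0 calls without the block (776 genes at an unadjusted p under 0.05) and 757 with it, where 2 residual degrees of freedom remained.

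**Figure D2:**
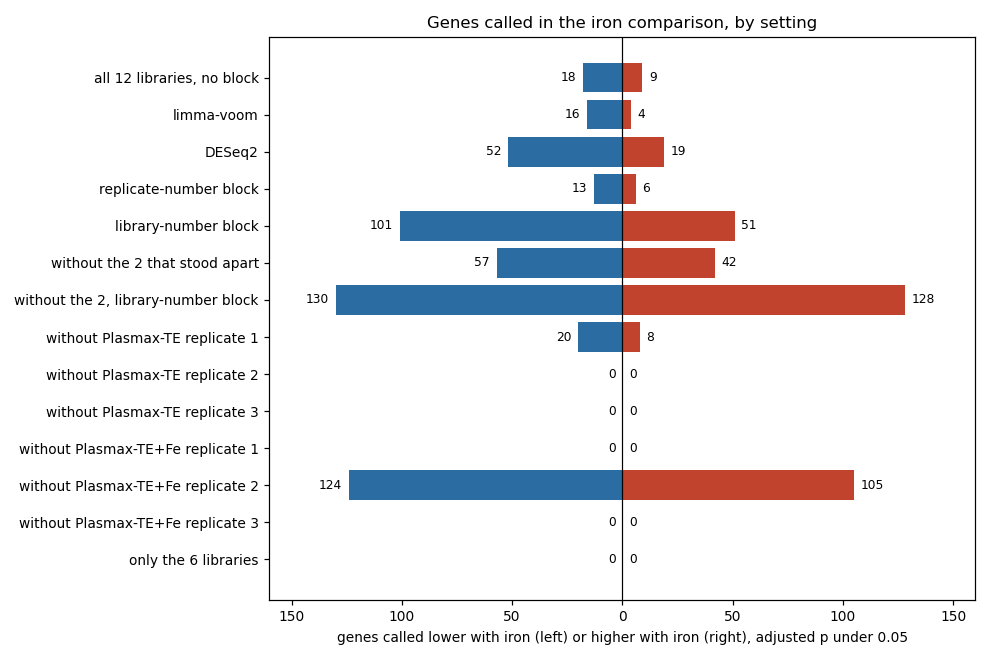
Number of genes called in the iron comparison (x axis, genes with adjusted p under 0.05; blue bars to the left lower with iron, red bars to the right higher with iron) under 14 settings (y axis). The count was 9 higher and 18 lower with all libraries, and 0 in both directions when any of 4 libraries outside the pair that stood apart was left out.

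CYP1A1 (ENSG00000140465), a cytochrome P450 of the liver and the standard target of the aryl hydrocarbon receptor, had the largest rise among the called genes. It stood at 2.17, 3.15 and 1.09 CPM in the 3 Plasmax-TE libraries (4, 7 and 2 counts) and at 14.2, 6.68 and 19.9 CPM in the 3 Plasmax-TE+Fe libraries (33, 13 and 40 counts). Every library with iron was above every library without it, and Plasmax-TE+Fe replicate 2, of the first run, was the lowest of the iron libraries. The log2 fold change was 2.60 ± 0.45 (6.08-fold, adjusted p = 0.024) and 2.90 ± 0.46 without the pair. Its level with iron was still far below complete Plasmax (82.8 ± 17.6 CPM, SD, n = 3) and nearer to EMEM (6.47 ± 1.27 CPM). Of 8 tested genes in the list of this receptor it was the 1 called (12.5%, against 0.258% of all genes). The other measured members of the aryl hydrocarbon receptor list, 7 of 8, did not pass the test. AHR, the receptor itself, had a fold change of 0.75 ± 0.38, its repressor AHRR 0.48 ± 0.46 (3.25, 3.15 and 4.89 against 6.45, 3.08 and 5.98 CPM) and TIPARP, a further target, 0.02 ± 0.31; AHRR and TIPARP were chosen after their values were seen.

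AREG (ENSG00000109321) encodes amphiregulin, which activates the epidermal growth factor receptor. Its level was 24.4, 80.0 and 72.3 CPM without iron and 283, 74.5 and 370.0 CPM with it. Both media were low in the first library run (24.4 and 74.5 CPM), and the low iron library lay between the values without iron, so that the groups overlapped while the level rose within each of the 3 runs. The log2 fold change was 2.03 ± 0.42 (adjusted p = 0.037) and 2.09 ± 0.22 without the pair. Of the 21 measured epidermal growth factor receptor ligands and ERK-responsive genes, AREG was the 1 member called (4.76%, against 0.258% of all genes); 20 had a fold change above 0 and the median was 0.38, against 0.00 over all genes tested. DUSP5 and DUSP6, phosphatases that switch off ERK, passed with the library-run block as well (fold changes 1.33 ± 0.44 and 0.64 ± 0.19, adjusted p = 0.0496 and 0.030 with the block and 0.29 and 0.19 without), which made 14.3% of the list against 0.488% of all genes that were higher. HBEGF, a further ligand of this receptor, had a fold change of 1.37 ± 0.46 and did not pass either test (adjusted p = 0.15 with the block).

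The promoters of these 2 risers are shown because each holds a short motif of a factor that the gene is known for. They are the 250 bases before the RefSeq transcription start on GRCh38.p14, a build that differs from the hg19 build of the counts, written 5′ to 3′ on the gene's own strand. Capitals mark GCGTG, the core of the aryl hydrocarbon receptor element, for CYP1A1 (chr15:74725529-74725778, minus strand, first base 57 bases before the start) and TGACGTCA, the cyclic AMP response element, for AREG (chr4:74444886-74445135, plus strand, 65 bases before the start).
CYP1A1: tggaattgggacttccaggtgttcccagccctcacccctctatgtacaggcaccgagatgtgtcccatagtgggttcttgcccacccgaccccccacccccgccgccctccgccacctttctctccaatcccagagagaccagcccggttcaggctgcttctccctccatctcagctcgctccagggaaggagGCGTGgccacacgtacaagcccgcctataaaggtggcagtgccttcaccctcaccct
AREG: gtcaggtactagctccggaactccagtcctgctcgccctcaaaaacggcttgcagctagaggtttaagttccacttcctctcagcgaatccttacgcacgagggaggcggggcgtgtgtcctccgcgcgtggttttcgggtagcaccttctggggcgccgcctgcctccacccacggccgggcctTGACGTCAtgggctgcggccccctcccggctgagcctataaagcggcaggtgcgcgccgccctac
Both strands were searched, and the motifs were chosen after the gene values were seen. GCGTG occurred in 32.2% and TGACGTCA in 1.64% of the 34788 distinct promoter windows of this length. Of the 27 called genes 20 had a promoter in the table; GCGTG occurred in 7 of them (AREG, CHST15, CYP1A1, JAG1, MPC1, NIPSNAP1 and RNASET2) and TGACGTCA in AREG alone. A match describes the letters of the window and is no evidence that a factor binds there.

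JAG1 (ENSG00000101384), a membrane ligand of Notch receptors, stood at 37.9, 43.6 and 51.7 CPM in Plasmax-TE and at 101, 73 and 116 CPM in Plasmax-TE+Fe. The groups did not overlap, and the rise was 0.93, 1.39 and 0.95 on the log2 scale in the first, middle and last library run. Its log2 fold change was 1.12 ± 0.19 (adjusted p = 0.024). Of the 20 Notch pathway genes tested JAG1 was the 1 called (5%, against 0.258% of all genes), and the median of the list was 0.00. HES1, a transcriptional repressor that Notch induces, stood at 128, 179 and 183 CPM without and 285, 179 and 292 CPM with iron; its fold change of 0.62 ± 0.20 did not pass (adjusted p = 0.24, and 0.10 with the block). Its low iron library was again replicate 2 of the first run.

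NEDD9 (ENSG00000111859), a scaffold protein of focal adhesions, rose from 53.1, 73.3 and 85.4 CPM to 171, 104 and 189.7 CPM, a fold change of 1.13 ± 0.21. TNFRSF12A (ENSG00000006327), the receptor of the cytokine TWEAK, rose from 25.5, 35.5 and 45.7 to 73.1, 61.2 and 81.2 CPM (1.01 ± 0.19). Both were separated between the media and lowest, in each medium, in the first library run. TCIM (ENSG00000176907), a small regulator of transcription, rose from 19.5, 13.5 and 14.1 to 50.3, 23.1 and 49.3 CPM (1.39 ± 0.27). CHST15 (ENSG00000182022), which adds sulfate to chondroitin chains, rose from 9.21, 3.60 and 5.98 to 22.8, 14.9 and 25.4 CPM (1.77 ± 0.36). These 2 genes showed their smallest ratio in the first run, where the Plasmax-TE library was the highest of its medium and the iron library the lowest of its own. VPS37A (ENSG00000155975), a subunit of the ESCRT-I sorting complex, rose by 1.17 ± 0.24, and RNASET2 (ENSG00000026297), a lysosomal ribonuclease, by 0.87 ± 0.17; neither overlapped between the media. Adjusted p-values of these 6 genes lay between 0.024 and 0.044.

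**Figure D3:**
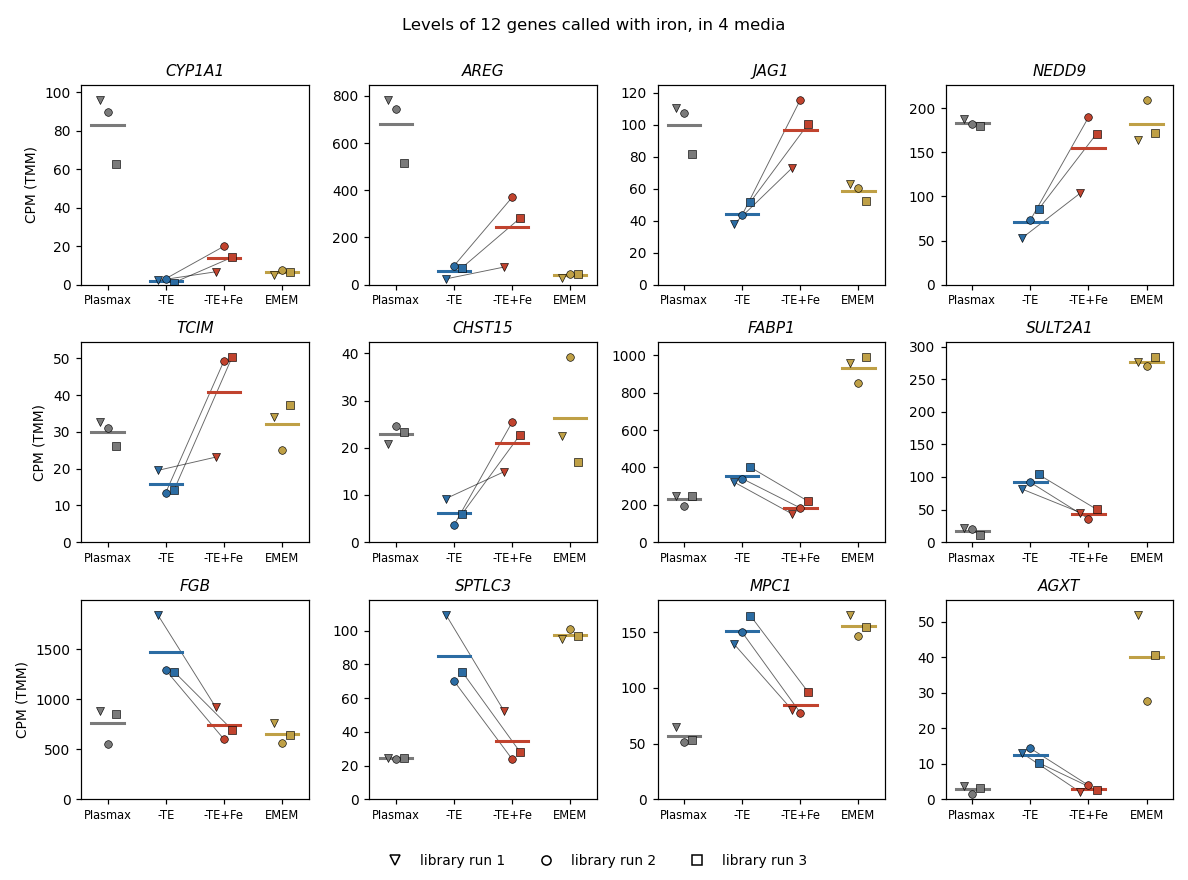
Levels in CPM after TMM scaling (y axes, linear from 0) of 12 called genes in Plasmax, Plasmax-TE (-TE), Plasmax-TE+Fe (-TE+Fe) and EMEM (x axes). Points are libraries, with the marker shape giving the library run, bars are means of 3 libraries, and thin lines join the Plasmax-TE and Plasmax-TE+Fe libraries of a run. The first 6 genes were higher with iron and the last 6 lower, and the line of every run goes the same way in each panel.

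FABP1 (ENSG00000163586), the liver fatty acid binding protein, fell with iron. Its level was 321, 339.9 and 401 CPM in Plasmax-TE and 218, 151 and 183 CPM in Plasmax-TE+Fe. The lowest value without iron was above the highest with iron, and the ratios of the 3 library runs were close to each other (-1.09, -0.89 and -0.88 on the log2 scale). The log2 fold change was -0.94 ± 0.16 (adjusted p = 0.024) and -0.88 ± 0.16 without the pair. ACAA1 (ENSG00000060971), the thiolase of peroxisomal fatty acid oxidation, fell from 125, 114 and 117 to 71, 68.4 and 57.3 CPM (-0.86 ± 0.16, adjusted p = 0.027). Of 27 genes of fatty acid oxidation, ketogenesis and PPARA targets these 2 passed (7.41%, against 0.258% of all genes), 23 had a fold change below 0 and the median was -0.41. CREB3L3, a membrane-bound transcription factor of liver lipid metabolism, passed with the library-run block as a further member (52, 23.8 and 34.8 against 12.9, 20.0 and 11 CPM; fold change -1.33 ± 0.31, adjusted p = 0.076 without and 0.0053 with the block), which made 11.1% against 0.966% of all genes that were lower. PPARA itself, a gene looked up after the values were seen, had a fold change of -0.23 ± 0.20 and overlapped between the media.

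The promoters of FABP1 and CREB3L3 are shown because both hold, in capitals, a relaxed form of the direct repeat that nuclear receptors such as PPARA and HNF4A bind, searched as TGACCT, then any base, then TGNCC. Build, window and strand are as for the promoters above (FABP1 at chr2:88128063-88128312, minus strand, first base 68 bases before the start; CREB3L3 at chr19:4153381-4153630, plus strand, 221 bases before the start, where the match reads on the opposite strand).
FABP1: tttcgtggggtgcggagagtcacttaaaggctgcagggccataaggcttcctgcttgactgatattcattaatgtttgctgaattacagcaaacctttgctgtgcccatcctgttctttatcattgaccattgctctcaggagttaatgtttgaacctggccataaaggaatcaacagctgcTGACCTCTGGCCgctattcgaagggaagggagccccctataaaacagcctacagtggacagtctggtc
CREB3L3: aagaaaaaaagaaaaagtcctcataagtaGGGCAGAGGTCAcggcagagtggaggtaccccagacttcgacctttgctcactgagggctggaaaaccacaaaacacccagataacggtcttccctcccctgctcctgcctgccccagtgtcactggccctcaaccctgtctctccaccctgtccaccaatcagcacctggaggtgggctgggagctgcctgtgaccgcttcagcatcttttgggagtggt
The relaxed repeat occurred in 0.141% of all windows, and in FABP1 alone among the 20 promoters of the 27 called genes. The form was chosen after the gene values were seen and written to fit the FABP1 window, so its occurrence there is a description.

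The tallies of cholesterol synthesis and uptake leave out tested members of the list that are not reported here. All of the 19 genes reported had a fold change below 0 (median -0.51). In 11 every library with iron lay below every library without it, against 7.07% of all genes. None of the 19 was called without the block, and 3 were called lower with it (15.8%, against 0.966% of all genes that were lower). Without the pair and with the block 5 were called lower, where 1.22% of all genes were. The 3 were TM7SF2, a sterol reductase, ACAT2, which makes acetoacetyl-CoA, and MSMO1, a sterol methyl oxidase that holds iron. TM7SF2 stood at 60.1, 54 and 42.4 CPM without and 23.7, 36.5 and 23.9 CPM with iron (-0.90 ± 0.24, adjusted p = 0.0496 with and 0.13 without the block). ACAT2 stood at 63.9, 92.6 and 133 against 57.6, 46.8 and 55.3 CPM (-0.85 ± 0.26, adjusted p = 0.042 and 0.21), and MSMO1 at 55.8, 47.7 and 69.1 against 38.7, 40.6 and 31.4 CPM (-0.63 ± 0.17, adjusted p = 0.049 and 0.15). In each of the 3 genes every library with iron lay below every library without it, and without the pair they passed with the block (adjusted p = 0.016, 0.014 and 0.039) and missed the threshold without it (0.065, 0.074 and 0.11).

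SPTLC3 (ENSG00000172296), a subunit of the enzyme that starts sphingolipid synthesis, fell from 109, 70.1 and 75.6 to 28, 52.4 and 23.9 CPM (-1.29 ± 0.23, adjusted p = 0.024). KLB (ENSG00000134962), the coreceptor through which liver cells bind the hormone FGF19, fell from 112, 79.1 and 93 to 49, 49.9 and 47.8 CPM (-0.95 ± 0.19). LIPC, the hepatic lipase, fell from 93.7, 103 and 111 to 62.4, 61.2 and 51.3 CPM (-0.81 ± 0.16). The 3 KLB values with iron lay within a narrow range, and no library of these genes crossed between the media.

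Enzymes and transporters of intermediary metabolism were also among the genes that fell. AGXT (ENSG00000172482), which converts glyoxylate to glycine in peroxisomes, had the largest fall among the called genes, from 13, 14.4 and 10.3 CPM (24, 32 and 19 counts) to 2.58, 2.06 and 3.98 CPM (6, 4 and 8 counts), a fold change of -2.12 ± 0.39 (adjusted p = 0.024). ALDH6A1 (ENSG00000119711), of valine breakdown, fell from 65.5, 81.8 and 56.5 to 31.8, 35.5 and 31.9 CPM (-1.04 ± 0.20). Both genes were lower in every library with iron. In the list of the urea cycle and amino acid breakdown, which does not hold ALDH6A1, AGXT was the 1 gene called of 25 (4%, against 0.258% of all genes; median -0.29), and MAT1A, which makes S-adenosylmethionine, was called with the block as well (8% of the list, against 1.45% of all genes; -0.56 ± 0.16, adjusted p = 0.046).

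MPC1 (ENSG00000060762), a subunit of the mitochondrial pyruvate carrier, fell from 139, 149.7 and 165 to 95.9, 80.2 and 77.7 CPM (-0.84 ± 0.15, adjusted p = 0.024). It was the 1 call among 30 genes of the citric acid cycle and pyruvate handling (3.33%, against 0.258% of all genes), whose median was -0.06; IDH1, the cytosolic isocitrate dehydrogenase, was added by the block, which made 6.67% against 1.45% of all genes (-0.57 ± 0.14, adjusted p = 0.020). SLC13A5 (ENSG00000141485), the citrate importer of liver cells, fell by 0.98 ± 0.19 on the log2 scale and SLC13A3, a dicarboxylate importer, by 0.77 ± 0.16. RHBG (ENSG00000132677), an ammonium transporter, fell from 95.3, 100.3 and 82.6 to 52, 55.5 and 40.3 CPM (-0.91 ± 0.16). GALK1 (ENSG00000108479), galactokinase, fell by 0.86 ± 0.17, AMDHD2 (ENSG00000162066), an enzyme of amino sugar breakdown, by 0.94 ± 0.18, the mitochondrial protein gene NIPSNAP1 by 0.80 ± 0.15, and the ubiquitin ligase gene TRIM50 (ENSG00000146755) by 1.86 ± 0.32. None of these 8 called genes overlapped between the media. LIPC, NIPSNAP1 and SLC13A3 fell outside the naming rule and are given as further genes of the 27.

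SULT2A1 (ENSG00000105398), the sulfotransferase of bile acids and steroid precursors, stood at 81.2, 91.7 and 104 CPM without and 50.3, 45.2 and 35.9 CPM with iron. The media did not overlap and the fall was seen in each run (-0.83, -1.33 and -1.03 on the log2 scale), giving a fold change of -1.07 ± 0.19 (adjusted p = 0.024). It was the 1 call among 18 genes of drug, steroid and bile acid metabolism (5.56%, against 0.258% of all genes), of which 14 had a fold change below 0 (median -0.25). The block called 3 members (16.7%, against 1.45% of all genes). Besides SULT2A1 these were AKR1D1, a reductase of bile acid synthesis, which was lower (-1.38 ± 0.38, adjusted p = 0.15 without and 0.044 with it), and AKR1C1, an aldo-keto reductase that was higher (0.54 ± 0.28, adjusted p = 0.57 and 0.021) and can share reads with near-identical relatives.

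FGB (ENSG00000171564), the fibrinogen beta chain, fell from 1843, 1289 and 1275 CPM to 696, 919 and 601 CPM, a fold change of -0.99 ± 0.20 (adjusted p = 0.030, and 4.8e-04 with the block). Both media had their highest value in the first run, and the highest library with iron stayed below the lowest without it. The other chains had lower fold changes in size, with FGA at -0.70 ± 0.18 and FGG at -0.70 ± 0.17, and passed with the block alone (adjusted p = 0.0092 and 0.0036; 0.12 and 0.084 without it). Of 44 hepatocyte secreted proteins and markers FGB was the 1 called (2.27%, against 0.258% of all genes), 42 had a fold change below 0 and the median was -0.33. Without the pair 3 members passed, all lower, where 0.536% of all genes were called lower. With the block 12 passed, all lower (27.3%, against 0.966% of all genes that were lower). Among them were ALB, albumin (10846, 10432 and 10580 against 7880, 8053 and 7068 CPM, -0.47 ± 0.11), AFP, alpha-fetoprotein (-0.61 ± 0.14), and APOH, a plasma apolipoprotein (1548, 1861 and 2155 against 1278, 1036 and 1165 CPM, -0.68 ± 0.15). These 3 did not overlap between the media and missed the threshold without the block (adjusted p = 0.074, 0.074 and 0.059). In bulk RNA, less transcript per cell and fewer cells that carry a transcript cannot be told apart.

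Among 17 acute phase and complement genes all fold changes were below 0 (median -0.26), with FGB the 1 called (5.88%, against 0.258% of all genes) and 5 called with the block (29.4%, against 0.966% of all genes that were lower): the 3 fibrinogen genes, HP and A2M. Fibrinogen genes and HP stand in both of these lists. Haptoglobin (HP) can share reads with its close relative HPR, so its fold change (-0.89 ± 0.26) is uncertain.

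The genes named first in iron metabolism did not pass the test. TFRC (ENSG00000072274), transferrin receptor 1, stood at 52, 76 and 88.6 CPM in Plasmax-TE and 69.7, 33.9 and 75.2 CPM in Plasmax-TE+Fe. The media overlapped, and in both the library of the first run was the lowest. The fold change was -0.27 ± 0.24 (adjusted p = 0.79), and -0.18 ± 0.18 without the pair. FTH1 (ENSG00000167996) and FTL (ENSG00000087086), the ferritin chains, stood at 547, 611 and 660.1 and 4571, 4694 and 4731 CPM without iron and at 686, 592 and 648 and 4953, 5447 and 4380 CPM with it. Their fold changes were 0.08 ± 0.13 and 0.08 ± 0.17, close to 0 beside their errors. SLC40A1 (ENSG00000138449), ferroportin, was low throughout (22.7, 13.5 and 13.6 against 15.9, 26.7 and 23.4 CPM; 0.40 ± 0.31), and SLC11A2 (ENSG00000110911), the divalent metal importer, had a fold change of -0.28 ± 0.16. Missing the threshold does not show that the levels of these genes were unchanged.

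HAMP (ENSG00000105697), hepcidin, overlapped between the media (47.1, 95.3 and 99.5 CPM without and 85.2, 64.8 and 79.2 CPM with iron; -0.08 ± 0.23, adjusted p = 0.96). Both media stood above complete Plasmax, where HAMP was at 7.05 ± 1.07 CPM, and its log2 fold change over Plasmax was 3.52 ± 0.31 in Plasmax-TE and 3.44 ± 0.31 in Plasmax-TE+Fe. None of 14 hepcidin regulators and BMP-SMAD targets passed with or without the block (median 0.06); ID1, an inhibitor of differentiation induced by BMP, had a fold change of 0.45 ± 0.19 and ATOH8, a transcription factor of the same response, 0.89 ± 0.37.

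Of 24 genes of iron uptake, storage, export and sensing none passed edgeR's test without a block, in which 974 of all genes had an unadjusted p under 0.05, and 2 passed with the block, both lower (8.33%, against 0.966% of all genes that were lower). TFR2 (ENSG00000106327), the second transferrin receptor, made mainly by hepatocytes and part of the iron sensing that sets hepcidin, stood at 59.6, 53.1 and 68.5 CPM without and 25.8, 41.6 and 26.9 CPM with iron (-0.94 ± 0.22, adjusted p = 0.070 without and 0.0053 with the block). FBXL5 (ENSG00000118564) stood at 24.9, 22.5 and 21.2 CPM without and 6.02, 13.4 and 9.46 CPM with iron (-1.26 ± 0.29, adjusted p = 0.074 and 0.018). Neither gene overlapped between the media, and for each the highest iron library was replicate 2, of the first run. Without the pair and without a block both also passed (TFR2 -1.20 ± 0.24, adjusted p = 0.017; FBXL5 -1.51 ± 0.35, adjusted p = 0.041).

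**Figure D4:**
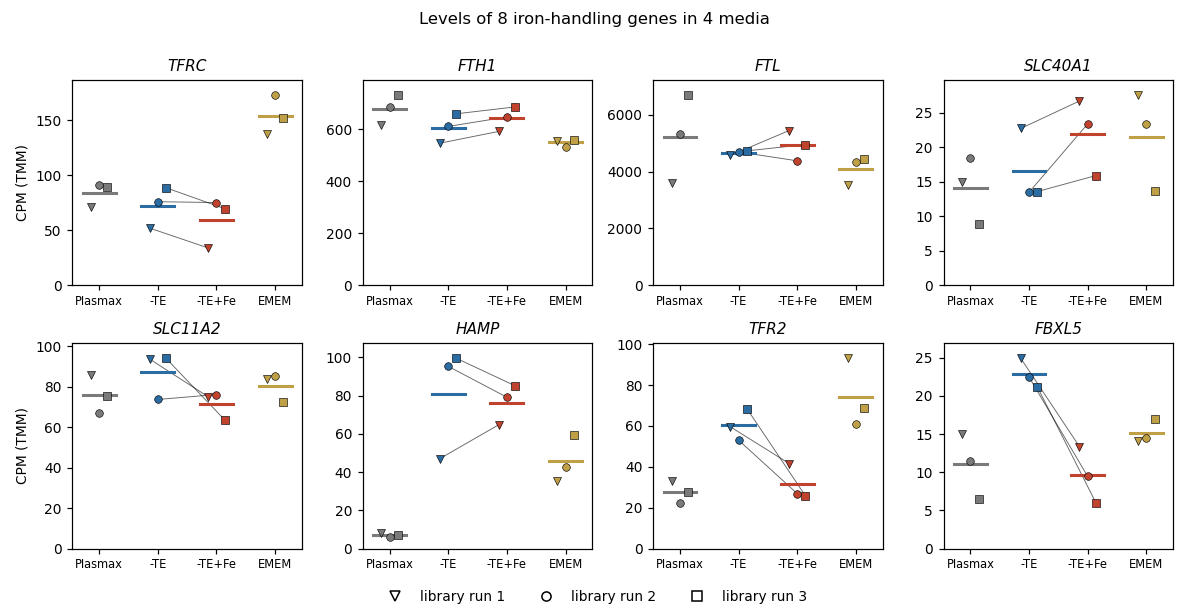
Levels in CPM after TMM scaling (y axes, linear from 0) of 8 iron-handling genes in the 4 media (x axes). Points are libraries with the marker shape giving the library run, bars are means of 3 libraries, and thin lines join Plasmax-TE and Plasmax-TE+Fe libraries of a run. TFRC, FTH1, FTL, SLC40A1, SLC11A2 and HAMP overlap between these media, while TFR2 and FBXL5 are lower in the 3 libraries with iron.

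Gene groups that depend on iron as a cofactor were examined next. None of 30 genes of heme synthesis and iron-sulfur assembly passed with or without the block (median 0.00), nor did any of 35 iron and 2-oxoglutarate dioxygenases (0.03). Of 70 nuclear-encoded subunits of the respiratory chain none passed without the block (median 0.03) and ATP5MC2, a subunit of ATP synthase, was called lower with it (1.43%, against 0.966% of all genes that were lower; -0.48 ± 0.14, adjusted p = 0.041). None of 15 mitochondrially encoded genes looked for was found in the deposited counts.

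Of 36 HIF targets none was called without the block; 26 had a fold change above 0 and the median was 0.44. Without the pair 3 passed, all higher, where 0.395% of all genes were called higher. With the block 4 passed, all higher (11.1%, against 0.488% of all genes that were higher), among them SLC2A1, DDIT4 and SLC2A3. SLC2A1, the glucose transporter GLUT1, stood at 61.7, 250.4 and 302 CPM without and 605, 152 and 747 CPM with iron. The first run held the lowest library of each medium, so that the media overlapped while the level rose within each run (1.29 ± 0.43, adjusted p = 0.29 without and 0.035 with the block). DDIT4, an inhibitor of mTOR signalling, stood at 46, 34.2 and 49.5 against 116, 54 and 105 CPM (1.10 ± 0.27). In the glycolysis list (16 genes, median 0.27) none passed without the block, and SLC2A1 and PKM, pyruvate kinase, passed with it (12.5%, against 0.488% of all genes that were higher).

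The list of ATF4 targets and the integrated stress response (34 genes, median 0.35) had no call without the block and 3 higher with it (8.82%, against 0.488% of all genes that were higher), namely GDF15, a stress-induced hormone (789.7, 1625 and 1660 against 2698, 1620 and 3251 CPM, 0.89 ± 0.24), DDIT4, and SLC38A2, an amino acid importer (0.57 ± 0.18). Of 36 genes of matrix, integrins and cytoskeleton 4 were called higher with the block (11.1%, against 0.488%), among them ITGA2, an integrin alpha chain that binds collagen (33.6, 66.1 and 56 against 116, 79.7 and 153 CPM, 1.16 ± 0.26), SERPINE2 (0.87 ± 0.19) and TUBB6, a beta tubulin (0.76 ± 0.19). ITGA2, SERPINE2 and TUBB6 did not overlap between the media. Among 26 p53 targets CDKN1A, an inhibitor of the cell cycle (0.77 ± 0.22), and GDF15 passed with the block (7.69%, against 1.45% of all genes). The median of this list was -0.07, with 14 fold changes below 0, and GDF15 stands in the ATF4 list too. The 39 genes of S phase and the 38 of mitosis had 0 calls in edgeR's test with and without the block, with medians of -0.23 and -0.21.

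**Figure D5:**
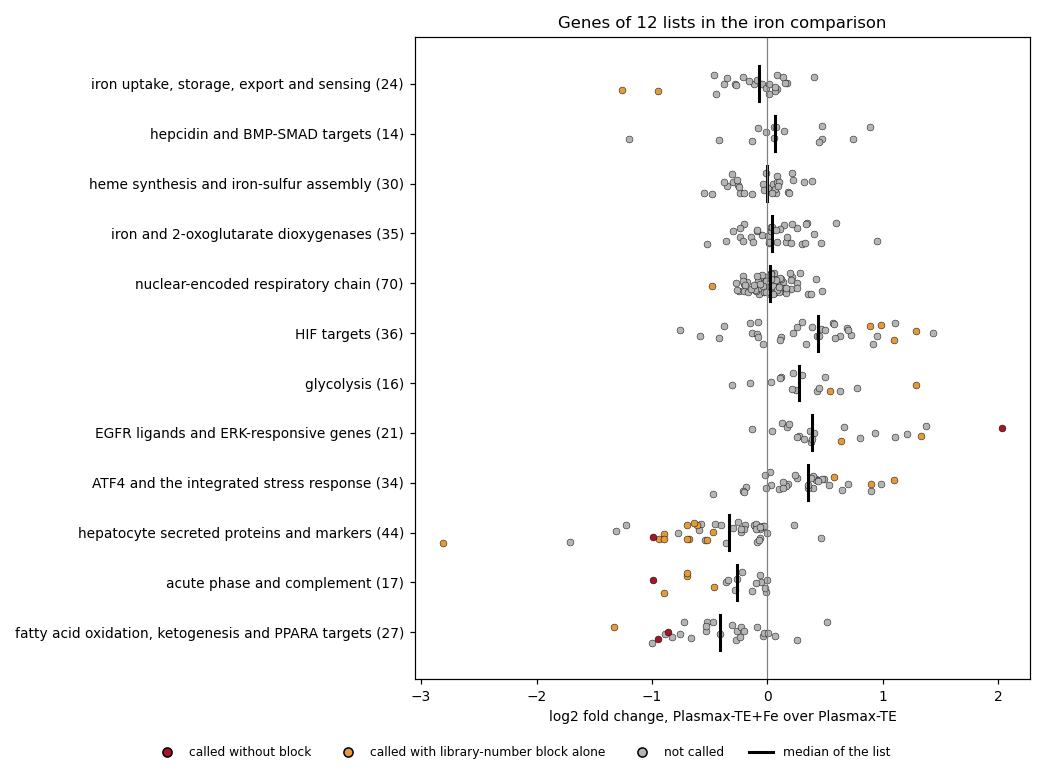
Log2 fold changes (x axis, Plasmax-TE+Fe over Plasmax-TE) of the genes of 12 lists (y axis, number of genes tested in brackets; vertical scatter within a line carries no value). Dark red points were called without a block, orange points with the library-run block alone, grey points by neither, and black bars are list medians. Medians of the hepatocyte, acute phase and fatty acid oxidation lists lie between -0.41 and -0.26, and those of the HIF, glycolysis, growth factor and ATF4 lists between 0.27 and 0.44.

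Genes outside the lists added by the block included, among the highest fold changes without overlap, TEX19, a germ cell gene (3.79, 4.05 and 3.81 against 15.9, 10.3 and 12 CPM, 1.70 ± 0.38), MAB21L3 (1.50 ± 0.39), KLF5, a Krüppel-like transcription factor (1.35 ± 0.43), and IL11, a cytokine of the interleukin-6 family (9.21, 11.7 and 15.8 against 36.1, 16.4 and 33.4 CPM, 1.24 ± 0.32). Their adjusted p with the block lay between 0.015 and 0.042, and between 0.059 and 0.26 without it. Among the lowest were PLIN5, a lipid droplet protein (11.4, 8.54 and 9.24 against 2.58, 3.08 and 1.99 CPM, -1.90 ± 0.46), TNFSF10, the death ligand TRAIL (46, 31 and 26.6 against 6.88, 23.6 and 6.97 CPM, -1.49 ± 0.34), and ACSM2B, an acyl-CoA synthetase (-1.60 ± 0.35), whose near-identical neighbour ACSM2A can take part of its reads. The iron library of TNFSF10 in the first run, 23.6 CPM, was more than 3 times the other 2. In the metallothionein and metal transport list (20 genes) the block called 10% of the genes, against 1.45% of all genes. They were MT2A, which was higher (0.69 ± 0.23), and MT1F, which was lower (-1.15 ± 0.28). These genes are near-copies of each other and their counts are uncertain.

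The same genes were looked at beside complete Plasmax, in comparisons that share the Plasmax-TE or the Plasmax-TE+Fe libraries with the iron comparison, so that their values are set side by side and are not independent. By edgeR's test 1176 genes (11.2%) differed between Plasmax-TE and Plasmax, and 126 (1.2%) between Plasmax-TE+Fe and Plasmax. JAG1 had a log2 fold change over Plasmax of -1.16 ± 0.19 in Plasmax-TE and -0.04 ± 0.18 in Plasmax-TE+Fe. NEDD9 had -1.37 ± 0.21 and -0.24 ± 0.20, and CHST15 -1.89 ± 0.36 and -0.12 ± 0.30. Those 3 genes passed in Plasmax-TE (adjusted p = 7.1e-04, 3.0e-04 and 0.0022) and not in Plasmax-TE+Fe (adjusted p = 0.95, 0.64 and 0.91).

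Of the genes that fell, AGXT had 2.15 ± 0.40 over Plasmax without iron and 0.04 ± 0.51 with it, and FGB 0.95 ± 0.20 and -0.04 ± 0.20. FABP1 had 0.63 ± 0.16 and -0.32 ± 0.16, with the level in Plasmax (229 ± 31 CPM) between those of the 2 media. RNASET2 stood with iron above both Plasmax-TE and Plasmax (-0.28 ± 0.17 and 0.59 ± 0.16 over Plasmax). Its difference from Plasmax with iron did not pass edgeR's test without the block (adjusted p = 0.090) and passed with it (0.023).

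Some genes still differed from Plasmax with iron present. CYP1A1 had -5.19 ± 0.37 over Plasmax without iron and -2.59 ± 0.27 with it (adjusted p = 8.7e-08 and 2.3e-05). SULT2A1 had 2.43 ± 0.21 and 1.36 ± 0.22 (adjusted p = 8.0e-07 and 0.0027). IL11 had -2.49 ± 0.31 and -1.26 ± 0.27 (adjusted p = 0.024 with iron). MPC1 had 1.42 ± 0.16 and 0.58 ± 0.16, and the latter did not pass edgeR's test without the block (adjusted p = 0.079, and 0.029 with it). AREG had -3.52 ± 0.43 and -1.49 ± 0.39, and its difference with iron did not pass without the block either (adjusted p = 0.068, and 0.0018 with it). Its mean level was 242 CPM in Plasmax-TE+Fe and 682 CPM in Plasmax.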

How the data were processed

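Total RNA of HepG2 cells was made into QuantSeq libraries, which read the 3′ end of messenger RNA, per the labels' protocols. The authors deposited raw counts per gene, which are whole numbers and not normalized. Named per the submitters' processing notes are FastQC 0.72, cutadapt 1.16, STAR 2.7.5b, featureCounts 1.6.3, limma 3.40.6 and hg19 (GRCh37). Annotation and strand setting are not given in the sources used here. Of 10994 entries, 54 surplus copies of 53 repeated Ensembl identifiers (counts identical) were dropped, which left 10940 genes. Low genes were already missing from the table, since each gene reached 4.04 CPM in at least 3 libraries. No symbol was given for 506 identifiers, and the reference named 255 of them.

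The test was edgeR 4.0.16 in R 4.3.3. After filterByExpr (minimum count 10), which took out 481 genes, 10459 remained, and scaling was by TMM. A quasi-likelihood model of the 4 media used all 12 libraries, with 8 residual degrees of freedom. Calls are two-sided at a Benjamini-Hochberg adjusted p under 0.05. The SE was taken as |log2 fold change| over the root of F. With 3 libraries against 3, the smallest exact permutation p is 0.1. Principal components used log2 CPM (prior count 2). The tests were tried on simulated counts that held no run effect and no deviating libraries. That trial therefore cannot show how the tests fare with such features.

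Deviations from the medium's mean were correlated between libraries of the 2 media. Pairs of the same library run gave 0.53, 0.22 and 0.38, so the run, a set of 4 consecutive library numbers, served as the pairing block (6 residual degrees of freedom); the highest value is that of the pair that stood apart. Pairs of the same run in which 1 library was of Plasmax gave 0.025 to 0.098. Calls in comparisons with Plasmax are therefore taken without the block in the results. Pairs of EMEM with the 2 media gave 0.11 to 0.19. For the iron comparison the block was fitted over all 12 libraries. The Plasmax and EMEM libraries, with these low values, thus entered the estimates behind its calls with the block. Pairs of the same replicate number gave -0.43, -0.29 and 0.15. Deviations are taken from the mean of 3 libraries, so the pair that stood apart lowers the values of its libraries with others. It likewise raises the values among the other libraries, whatever their pairing, including the same-run values of 0.22 and 0.38. The -0.43 and -0.29 each hold a library of that pair. Plasmax-TE replicate 2 with Plasmax-TE+Fe replicate 1, which share neither number, gave 0.16. These values therefore do not settle whether the replicate number or the library run pairs the libraries. The block was chosen from the same counts that were tested.

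The members, the 38 gene lists and the tests were chosen with earlier results of these data known. The naming rule covers 9 given genes (6 iron genes, CYP1A1, FABP1, JAG1), up to 15 genes per direction that were called without overlap at a mean of 5 CPM or more, up to 6 per direction that the block alone called, and up to 4 of lowest p per list described. All others were picked with their values in view. Some genes are not reported here, but stay in the fits and, except for the cholesterol list, in the counts. Alternatives were other scaling (RLE, library size), DESeq2 1.42.0, limma-voom (limma 3.58.1), other filters, both blocks, omitted libraries and a fit of 6 libraries. Combining the last 2 with the library-run block was added after seeing the data. Promoters come from RefSeq on GRCh38.p14 by symbol.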

Additional observations from a re-analysis of the deposited data

How the results depend on the processing

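Of the 27 genes called with iron, all kept their direction in every setting tried. The count of called genes was 27 with RLE factors or without the low-count filter, 28 with a mean of at least 5 CPM, 36 with library size alone, 20 with limma-voom and 71 with DESeq2. With DESeq2 AREG was lost, and those lost with limma-voom included AGXT, AREG, CHST15, CYP1A1, SLC13A3, TCIM and VPS37A. It was 152 with the library-number block, 99 without the 2 libraries that stood apart, and 258 without them and with the block. Leaving out 1 library gave 0 to 229 calls, and 6 to 287 with the library-number block. The 4 zeros of edgeR's test came without Plasmax-TE replicate 2 or 3 or Plasmax-TE+Fe replicate 1 or 3. With the block 6 genes were called without any 1 of replicate 2 of Plasmax-TE and replicates 1 and 3 of Plasmax-TE+Fe, and 53 and 77 without Plasmax-TE replicate 1 and replicate 3. Only the 6 libraries of the media compared gave 0 calls (776 genes had an unadjusted p under 0.05), and 757 with the block.

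With the replicate block, whose numbers were not shown to pair these libraries, 19 genes were called, 18 of them among the 27. Plasmax-TE against Plasmax had 1176 calls, 1859 with the library-number block and 477 to 990 with 1 library left out. Plasmax-TE+Fe against Plasmax had 126, 372 with the block, 328 with the block and without the 2 libraries that stood apart, 77 with the 2 media alone, and 31 to 97 with 1 library left out. Uncalled iron genes changed sign near 0. TFRC ran from -0.46 to 0.0031 with 1 library left out, the latter without Plasmax-TE+Fe replicate 2. FTL was at -0.014 without the 2 libraries that stood apart, -0.018 with the block as well, and -0.13 without Plasmax-TE+Fe replicate 2 with the block. HAMP ran from -0.35 to 0.093 with 1 library left out, and was above 0 without replicate 2 (0.060) or 3 (0.093) of Plasmax-TE or replicate 2 of Plasmax-TE+Fe (0.025). With the block it was at 0.12 and 0.0013 without replicates 2 and 3 of Plasmax-TE, and at 0.040 without replicate 1 of Plasmax-TE+Fe. The cause of these changes was not tested.

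Genes of a few CPM rest on few counts at this depth: CYP1A1 had 2 to 7 counts per library without iron and AGXT 4 to 8 with it.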

Other observations

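Several gene groups not described above had members that passed with the library-run block. Of 18 genes of gluconeogenesis and FOXO responses, IGFBP1, a secreted protein that binds insulin-like growth factors, stood at 2119, 2586 and 2607 CPM in Plasmax-TE and 4398, 3883 and 5208 CPM in Plasmax-TE+Fe. The media did not overlap, and its log2 fold change of 0.88 ± 0.25 passed edgeR's test with the block (adjusted p = 0.047) and missed the threshold without it (0.15). TRIB1, a pseudokinase of liver lipid metabolism, stood at 82.9, 117 and 140.3 against 261, 135 and 265 CPM (0.96 ± 0.22, adjusted p = 0.0076 with the block and 0.068 without). These 2 were the genes of their list called with the block (11.1%, against 1.45% of all genes). The iron library of TRIB1 in the first run lay below the highest library without iron, so the media overlapped. The key enzyme genes of glucose output were not called: G6PC had a fold change of -0.54 ± 0.29 and PCK1, a gene looked up with its value in view, -0.10 ± 0.45, with no pass in either fit. Among 29 genes of the NRF2 response and ferroptosis defence, AKR1C1 was the 1 called with the block (3.45%, against 1.45% of all genes). It is an aldo-keto reductase with near-identical relatives that can share its reads. By edgeR's test its adjusted p was 0.021 with the block, and it did not pass without it (fold change without the block 0.54 ± 0.28). HMOX1, heme oxygenase, overlapped between the media (-0.12 ± 0.22).

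In edgeR's test with and without the block, 0 genes were called among 21 of fatty acid and triglyceride synthesis, 15 Wnt targets, 11 YAP-TEAD targets, 17 immediate early and heat shock genes, 23 of the unfolded protein response, 19 selenoprotein genes, 24 of lysosome and autophagy, and 4 small nucleolar and structural RNAs. Their medians ran from -0.05 (the RNAs) to 0.23 (immediate early and heat shock). Of 15 progenitor and biliary markers AFP was the 1 called with the block (6.67%, against 1.45% of all genes). Of 2 tested fibroblast markers and 1 tested blood cell marker none was called (ACTA2 -0.60 ± 0.21, PDGFRB 0.12 ± 0.52 and LYZ 0.11 ± 0.24).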
